A study of Mus musculus with 21 samples.

Results

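Igkv12-89 and Igkv5-48 are 2 of the 160 kappa variable (Igkv) genes in count tables of 56953 genes from 21 RNA-seq libraries of sort-purified peritoneal B cells of C57BL/6 mice. They were chosen from the measured counts: each was the highest Igkv gene in at least 1 of the 4 libraries of B-1a cells from TET2-KO mice, and Ighv1-55, 1 of 183 heavy chain variable (Ighv) genes, was set beside them. The 3 genes were matched by their GENCODE symbols, and the amount of each is given as a share, in percent, of all Igkv or all Ighv counts of its library. Because the B-1a libraries chose the genes, their comparison between TET2-KO and WT in B-1a cells is a description and carries no test.

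The libraries fell into 6 groups: B-1a cells from WT mice (n = 4) and TET2-KO mice (n = 4), B-1b cells from WT (n = 4) and TET2-KO mice (n = 3), and B-2 cells from WT (n = 2) and TET2-KO mice (n = 4). The TET2-KO mice carried a global knockout, made from an allele that removes exons of the catalytic region of TET2, an enzyme that oxidizes 5-methylcytosine in DNA. The labels give no age, no treatment and no word on which libraries came from the same mouse, so the p-values below measure the spread between libraries. A library is named by its group and its number in the labels.

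A kappa light chain is made by joining 1 variable (V) gene to 1 joining (J) gene, and a heavy chain by joining V, D and J genes, so that each B cell and its descendants transcribe mainly 1 V gene of each kind at a high level. The V gene gives the chain most of its variable domain, including the first bases of the third complementarity-determining region (CDR3), the loop at the join. B-1a cells are CD5+ B cells of the body cavities that make natural IgM, and their repertoire is known to hold repeated chain pairs, among them Ighv11-2 with Igkv14-126 and Ighv12-3 with Igkv4-91, which bind phosphatidylcholine.

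The germline V exons of the 3 genes are shown because the share of a V gene counts transcripts that carry this stretch. They were read from the GRCm39 mouse genome, the build of the count tables, 5′ to 3′ on the coding (minus) strand. Capitals mark the bases from the last in-frame cysteine codon to the end of the exon, which are the germline start of CDR3. The Igkv12-89 exon lies at chr6:68811830-68812127 and the Igkv5-48 exon at chr6:69703557-69703854, both 298 bases, and of the 305 bases of the Ighv1-55 exon at chr12:115171715-115172019 the last 300 are shown.
Igkv12-89: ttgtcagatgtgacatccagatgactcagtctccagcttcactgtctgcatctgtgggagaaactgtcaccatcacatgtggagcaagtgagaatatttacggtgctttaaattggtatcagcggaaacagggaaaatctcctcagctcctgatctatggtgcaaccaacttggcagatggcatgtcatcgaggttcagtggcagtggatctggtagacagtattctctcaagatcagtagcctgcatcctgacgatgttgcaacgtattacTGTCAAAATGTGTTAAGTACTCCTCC
Igkv5-48: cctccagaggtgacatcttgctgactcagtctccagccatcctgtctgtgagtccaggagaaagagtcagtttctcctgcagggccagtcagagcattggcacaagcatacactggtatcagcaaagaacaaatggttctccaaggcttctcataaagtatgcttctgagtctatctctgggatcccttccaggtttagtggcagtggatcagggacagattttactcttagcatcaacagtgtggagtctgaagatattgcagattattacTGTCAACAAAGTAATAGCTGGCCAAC
Ighv1-55: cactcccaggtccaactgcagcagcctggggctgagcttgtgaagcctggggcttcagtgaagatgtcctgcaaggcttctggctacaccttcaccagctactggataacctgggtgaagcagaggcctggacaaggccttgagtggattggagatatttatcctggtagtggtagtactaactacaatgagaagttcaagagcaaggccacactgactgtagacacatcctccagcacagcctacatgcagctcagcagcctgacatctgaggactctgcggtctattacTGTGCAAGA
None of the 3 exons held a stop codon in frame. The 2 kappa exons were 61.8% identical in a global alignment, and the longest run of bases they shared was 16, so the 2 genes are unlike in sequence.

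Each exon ended at a recombination signal, the heptamer and nonamer that the RAG enzymes cut beside, shown here because a V gene needs one to be joined to a J gene. Capitals mark the heptamer and the best nonamer.
Igkv12-89 at chr6:68811802-68811829: CACAGTGattcaagccatgACATAAATC
Igkv5-48 at chr6:69703529-69703556: CACAGTGatgcagaccataGCAAAAATC
Ighv1-55 at chr12:115171677-115171714: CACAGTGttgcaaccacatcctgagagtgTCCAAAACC
All 3 heptamers were the consensus letters CACAGTG, with a spacer of 12 bases in the kappa genes and 22 bases in Ighv1-55. The 2 kappa genes shared the heptamer and the spacer length, and their spacer and nonamer letters differed.

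The octamer ATGCAAAT, read on either strand, is the promoter element of V genes that POU2F1, POU2F2 and their B cell coactivator POU2AF1 bind. It was found once in the 250 bases before the annotated start of each of the 3 genes, in capitals here.
Igkv12-89 at chr6:68812364-68812411: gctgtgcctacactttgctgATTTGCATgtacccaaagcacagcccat
Igkv5-48 at chr6:69704191-69704238: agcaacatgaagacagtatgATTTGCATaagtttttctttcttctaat
Ighv1-55 at chr12:115172228-115172275: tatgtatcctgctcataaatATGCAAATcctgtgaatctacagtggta
The octamer began 100 bases before the start of Igkv12-89, 96 before that of Igkv5-48 and 44 before that of Ighv1-55. Most V genes hold it: 72 of 100 functional Igkv genes (72%) and 90 of 113 functional Ighv genes (79.6%), against 1595 of the 78287 genes of the annotation (2.04%). The match is a description of the letters in these windows.

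Igkv12-89 (ENSMUSG00000076534.7) spans chr6:68811830-68812291 and Igkv5-48 (ENSMUSG00000076563.3) spans chr6:69703557-69704122, 891 kb apart in the Igk locus. Igkv5-48 lies 995 kb and Igkv12-89 1887 kb from Igkj1, the first kappa J gene. Ighv1-55 (ENSMUSG00000095589.3) spans chr12:115171715-115172211. The V exon nearest in sequence to Igkv12-89 was that of Igkv12-46 (85.9% identical) and that nearest to Igkv5-48 was Igkv5-45 (85.2%), with no shared run over 36 and 26 bases with any other Igkv gene. Ighv1-55 has closer relatives, with Ighv1-62 at 96.7% identity and a shared run of 118 bases, so its counts are less certain where the authors' counting could split reads between them.

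The libraries held 9667187 to 24152518 counts in all, with 57915 to 235866 in Igkv genes and 9243 to 61893 in Ighv genes. At this depth counting error was small: the 95% Wilson interval of a share of 55.6% ran from 55.4% to 55.9%, and that of the lowest Igkv5-48 share, 0.0998%, from 0.0837% to 0.119%. Such intervals cover counting error only. The counts are per gene and cannot show the deleted exons of Tet2, whose level was 12.6 to 30.3 CPM (counts scaled to library size) in the 11 TET2-KO libraries and 8.46 to 27.2 CPM in the 10 WT libraries.

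The 5 libraries labelled WT 1 or WT 2 had markers that went against their subset label. Fcer2a, which encodes CD23 of B-2 cells, stood at 815 CPM in the library labelled B-1a WT 1 and 598 CPM in that labelled B-1b WT 2, while the library labelled B-2 WT 1 had 24.2 CPM. The B-2 TET2-KO libraries had 484 to 834 CPM. Cd5, which marks B-1a cells, was at 1.64 CPM in B-1a WT 2 and 18.7 CPM in B-1b WT 1, against 15.9 to 21.1 CPM in the 4 B-1a TET2-KO libraries. The share differences and the fits over all genes against WT were therefore also made without the 5 libraries numbered WT 1 and WT 2. The J gene and marker ranges given for B-1a WT keep all 4 libraries. Every library held macrophage transcripts, with Lyz2 at 3830 to 27216 CPM, and the T cell gene Cd3e reached at most 4.62 CPM.

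Igkv12-89 was first among Igkv genes in 3 of the 4 libraries of B-1a cells from TET2-KO mice. It held 37.1% of Igkv counts in TET2-KO 1, 4.01% in TET2-KO 2, 55.6% in TET2-KO 3 and 45.5% in TET2-KO 4 (35.5% ± 22.4, SD, n = 4). In B-1a cells from WT mice it held 0.930%, 1.94%, 11.95% and 1.82% in numbers 1 to 4 (4.16% ± 5.21, SD, n = 4). TET2-KO libraries 1, 3 and 4 lay above all 4 WT libraries, and TET2-KO 2 lay among them. The mean was 31.4 percentage points higher in TET2-KO than in WT, and 28.7 points higher with the WT 1 and WT 2 libraries left out. In bulk RNA, more cells that use a V gene and more V gene RNA per cell cannot be told apart.

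Across the other 17 libraries the Igkv12-89 share ranged from 0.655% to 11.95% with a median of 3.33%. The highest of these was B-1a WT 3, where Igkv12-89 ranked second behind Igkv14-126, and the next were the B-1b TET2-KO 3 library at 6.58% and B-1b TET2-KO 1 at 5.79%. The lowest were B-2 WT 4 and B-2 TET2-KO 2 at 0.655% and 0.677%, where the gene ranked 47th in both. Below the 3 dominant libraries and B-1a WT 3, the B-1b WT, B-2 WT and B-2 TET2-KO groups overlapped with each other. The B-1b TET2-KO libraries, at 4.29% to 6.58%, lay above B-1a WT 1, 2 and 4, at 0.930% to 1.94%. B-1a TET2-KO 2 lay between them at 4.01%.

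Igkv5-48 was the highest Igkv gene in 1 library, B-1a TET2-KO 2, the TET2-KO B-1a library in which Igkv12-89 was not. It held 36.8% of Igkv counts there, against 0.0998%, 0.179% and 0.254% in TET2-KO 1, 3 and 4 (9.34% ± 18.3, SD, n = 4). In B-1a cells from WT mice it held 0.713%, 0.541%, 0.183% and 1.42% (0.715% ± 0.521, SD, n = 4). The 3 remaining TET2-KO libraries thus lay within or below the WT range. The mean difference of 8.63 percentage points rested on TET2-KO 2 alone, since without it the TET2-KO mean was 0.538 points below that of WT (-0.538).

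Over the 17 libraries outside this group the Igkv5-48 share ranged from 0.183% to 3.96%, with a median of 0.713%. The 3.96% belonged to B-1b TET2-KO 2, the library of the same number, where the gene ranked 6th. In the B-2 cells from TET2-KO mice number 2 was again highest at 1.45%, above 0.774% to 0.896% in the other 3. Number 2 was also lowest for Igkv12-89 and for Ighv1-55 in each of the 3 TET2-KO subsets, so that the 2 kappa genes fell in opposite places in the libraries of that number. The share of all V genes that keep 1 place in this way was not computed. The labels do not say whether one number stands for one mouse.

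**Figure D1:**
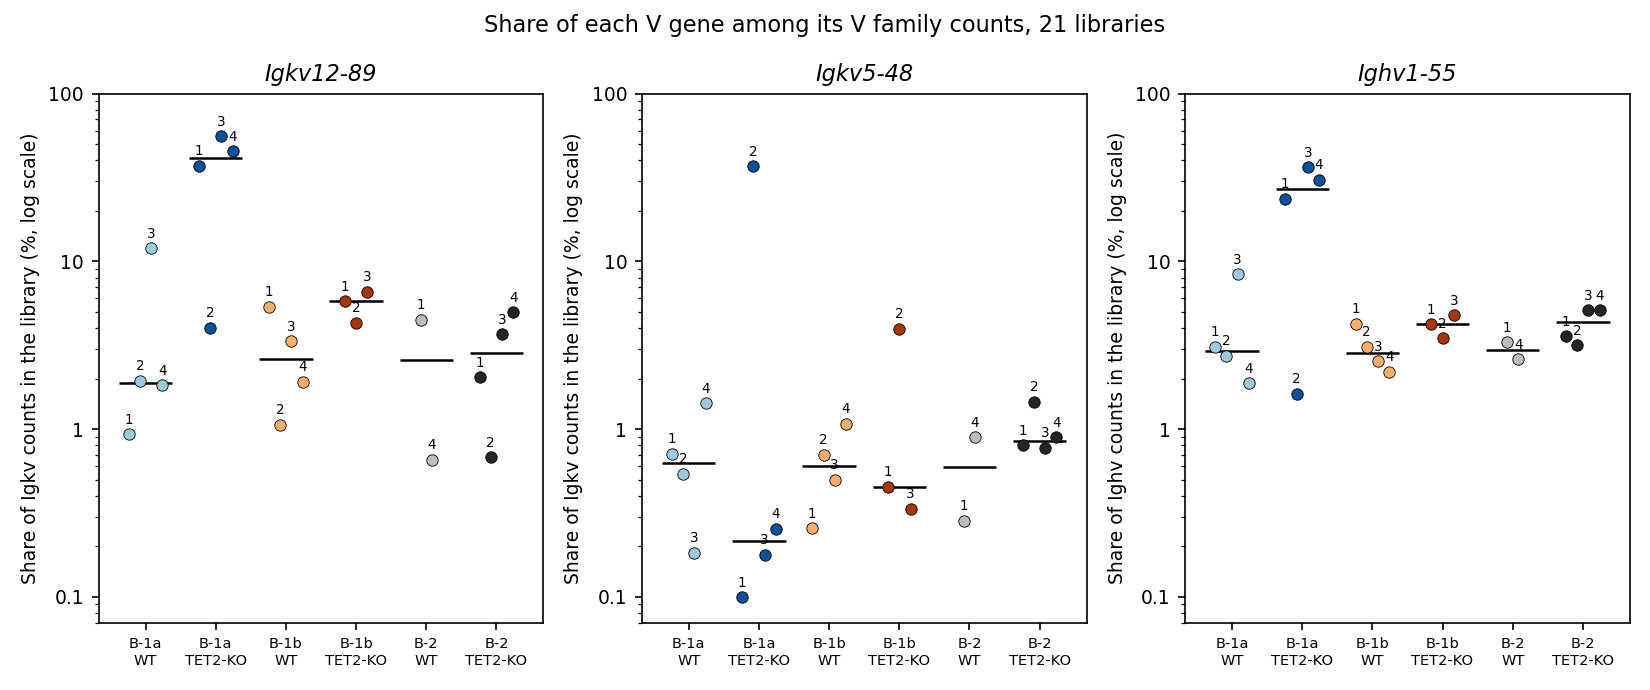
Each point is 1 library, numbered as in the labels, with the share of Igkv12-89 and Igkv5-48 among Igkv counts and of Ighv1-55 among Ighv counts on a log axis, and bars at the group medians. Igkv12-89 and Ighv1-55 were high in B-1a TET2-KO 1, 3 and 4, at 37.1% to 55.6% and 23.6% to 36.4%, and Igkv5-48 in B-1a TET2-KO 2, at 36.8%.

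Ighv1-55 followed Igkv12-89. In the TET2-KO B-1a group it held 23.6%, 1.62%, 36.4% and 30.5% of Ighv counts in numbers 1 to 4 (23.0% ± 15.2, SD, n = 4), and in WT 3.09%, 2.73%, 8.37% and 1.88% (4.02% ± 2.95, SD, n = 4). TET2-KO 1, 3 and 4 again lay above every WT library, and TET2-KO 2 below every WT library. The mean was 19.0 points higher in TET2-KO than in WT, and 17.9 points higher with the WT 1 and WT 2 libraries left out. Over the 17 other libraries the share ranged from 1.88% to 8.37%, with a median of 3.30%.

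Although Ighv1-55 is the heavy chain gene set beside the kappa pair, it was first among Ighv genes in 2 of 21 libraries, B-1a TET2-KO 3 and B-2 TET2-KO 4, the latter at 5.11%. In B-1a TET2-KO 1 and TET2-KO 4 it ranked second behind Ighv11-2, which held 27.4% and 49.9% of Ighv counts. In B-1a TET2-KO 2 the first heavy chain gene was Ighv12-3 at 69.3%, and Ighv1-55 ranked 5th.

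The members just inside and just outside first place differed in how close they were. The second Igkv gene in all 4 B-1a TET2-KO libraries was Igkv14-126, which held 23.7%, 10.3%, 17.5% and 34.4% of Igkv counts in numbers 1 to 4. Igkv12-89 exceeded it 1.56-fold in number 1, 3.18-fold in number 3 and 1.32-fold in number 4, and Igkv5-48 exceeded it 3.58-fold in number 2. Outside these libraries the first Igkv gene was Igkv1-117 in 10, Igkv4-91 in 3, Igkv14-126 in 2, and Igkv14-111 and Igkv6-20 in 1 each. Igkv1-117, first in 10 libraries, held 5.38% to 10.2% outside B-1a TET2-KO.

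Igkv12-89 and Igkv14-126 together made up 60.8%, 73.2% and 79.9% of Igkv counts in B-1a TET2-KO 1, 3 and 4, and 1.56% to 36.3% in the 17 libraries of the other groups. Their heavy chain counterparts in this listing, Ighv1-55 and Ighv11-2, together made up 51.0%, 56.6% and 80.5% of Ighv counts in the same 3 libraries. The effective number of Igkv genes (the inverse of the sum of squared shares) was 4.75, 2.90 and 3.03 in these libraries and 5.70 in number 2. The other 17 ranged from 6.26 to 38.9. With the first gene left out, it was 5.42, 5.67 and 2.42 in B-1a TET2-KO 1, 3 and 4, so few Igkv genes made up most of the remainder there too. It was 10.02 in number 2, near the 10.6 of B-1b WT 1. In B-1a WT 3 and WT 4 it was 14.3 and 15.1, and it reached 41.4 in B-2 TET2-KO 4.

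**Figure D2:**
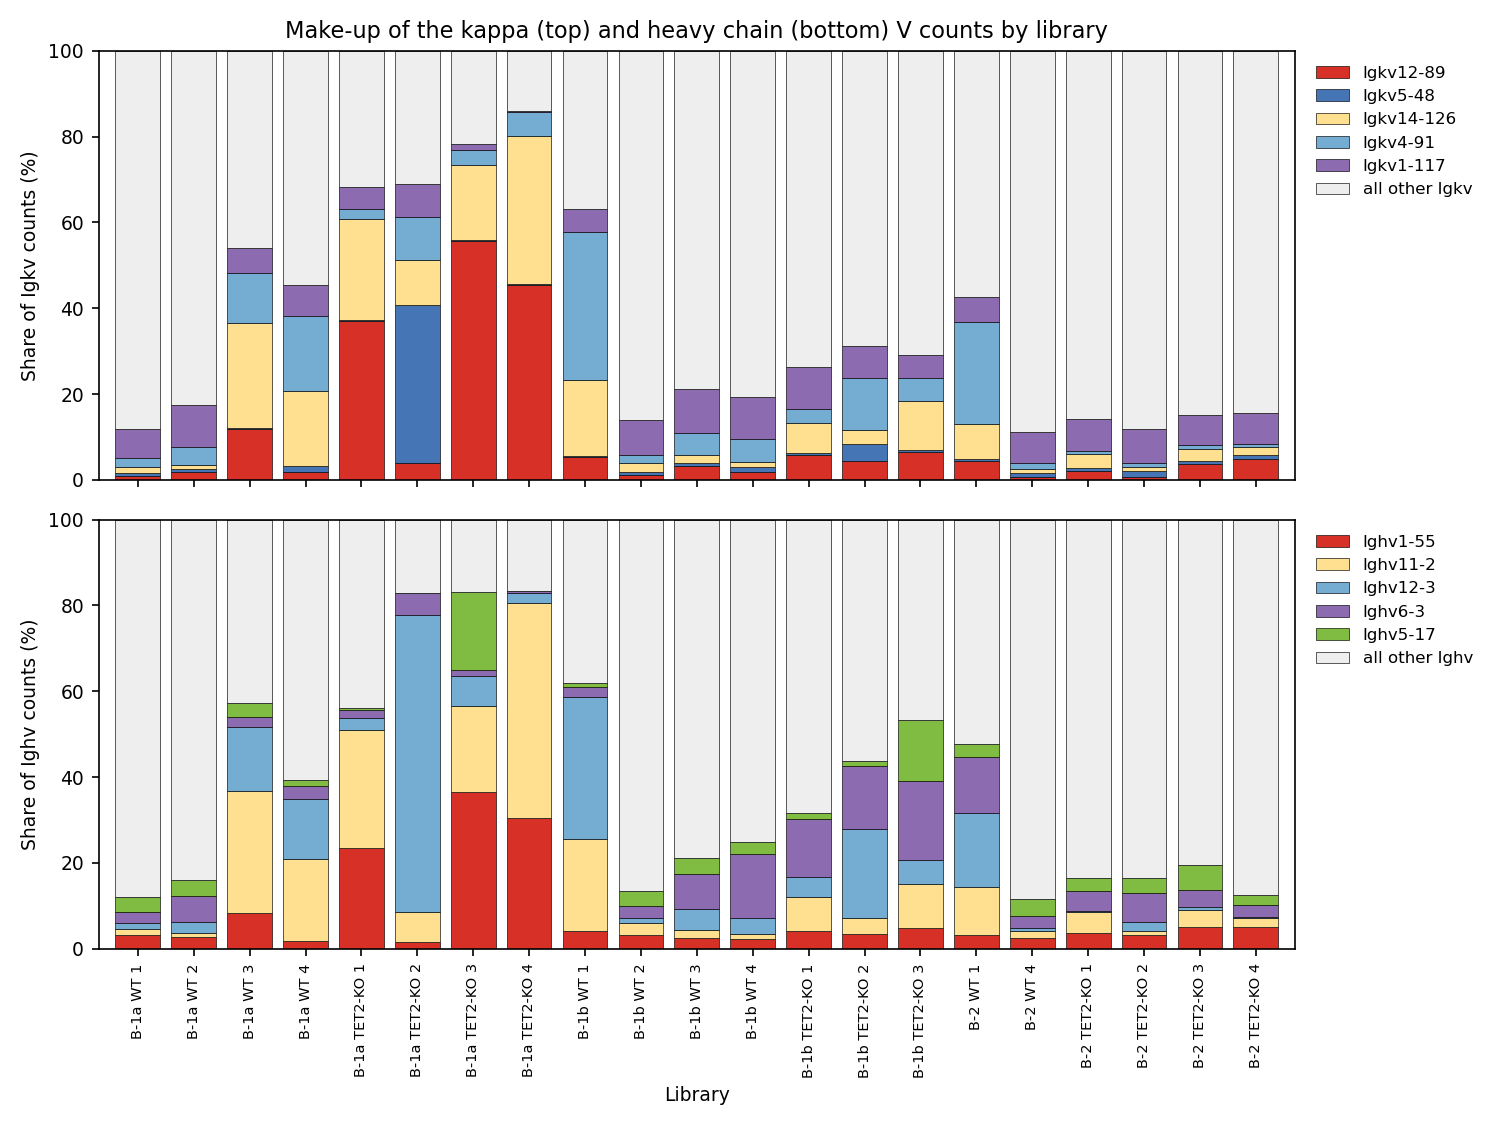
Stacked bars give, for each of the 21 libraries, the percent of Igkv counts (top) and Ighv counts (bottom) in 5 named genes each and in all others. Igkv12-89 takes 37.1% to 55.6% in B-1a TET2-KO 1, 3 and 4 beside Igkv14-126, and Igkv5-48 takes 36.8% in B-1a TET2-KO 2, whose Ighv counts are 69.3% Ighv12-3.

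B-1a TET2-KO 2 differed from the other 3 libraries of its group in the light chain as well. Lambda V genes (Iglv) took 65.8% of its light chain V counts, against 10.1% to 39.5% in the other 20 libraries, and Iglv2 alone took 58.0%. Igkv5-48 therefore made up 36.8% of kappa V counts but 12.6% of all light chain V counts there, while Igkv12-89 made up 32.1%, 45.5% and 40.1% of all light chain V counts in numbers 1, 3 and 4. The kappa constant gene Igkc took 41.2% of light chain constant counts and Iglc2 45.7% in number 2. In CPM, Igkv5-48 stood at 2103 in this library and at 7.75 to 15.4 in the other 3.

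The V genes nearest to each member by family symbol held small shares where the member was first. Igkv4-90 and Igkv1-88, each about 27 kb from Igkv12-89 (27137 and 26957 bases), held at most 0.129% of Igkv counts in the 3 libraries where Igkv12-89 was first. Farther out, Igkv4-91, 65742 bases away, held 2.33% to 5.55% in those libraries and 0.704% to 34.5% elsewhere. Igkv4-92, 79252 bases away, reached 0.877% in those 3 libraries against at most 0.469% elsewhere. Gm42543, a V gene 44.9 kb away, was highest in the same 3 libraries. Igkv12-49 and Igkv12-47, the pseudogenes on either side of Igkv5-48, held 0% and 0.0368% where Igkv5-48 was first. Ighv1-54 held 1.16% and Ighv1-56 0.00305% of Ighv counts in B-1a TET2-KO 3, where Ighv1-55 was first, and Ighv1-54 ranged from 0% to 1.02% in the other libraries. The closest relatives in sequence were low there too, with Igkv12-46 at 0.806% to 1.42% in the libraries led by Igkv12-89, and Igkv5-45 at 0.0293% in that led by Igkv5-48.

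J gene counts were low, 372 to 1189 per library for the 5 Igkj genes, and cannot be tied to a V gene in these tables. Igkj5 held 34.7% to 37.7% of Igkj counts in the 4 B-1a TET2-KO libraries and 30.4% to 41.5% in the B-1a WT libraries, so the groups overlapped, while Igkj2 held 11.6% to 14.6% and 14.1% to 28.7%. In the heavy chain Ighj1 held 73.7%, 72.0% and 73.2% of Ighj counts in B-1a TET2-KO 1, 3 and 4, and 48.3% (95% Wilson interval 42.0% to 54.6%, 238 counts) in number 2. B-1a WT libraries ranged from 33.3% to 64.6%. Ighj2 held 0.559% to 4.20% in B-1a TET2-KO and 7.05% to 14.5% in B-1a WT, and Ighj3 4.20% to 5.88% and 9.14% to 14.02%. In B-1a WT 3 and WT 4 Ighj2 held 9.63% and 7.05%, and Ighj3 12.7% and 9.14%. B-1a TET2-KO 4 had 179 Ighj counts, with 1 in Ighj2. The share of all genes whose ranges stay apart between these groups was not computed, so the Ighj ranges are a description. B-2 cell markers were 6 genes with none at 0 in any library. They summed to 798 to 1378 CPM in B-1a TET2-KO and 1452 to 8016 CPM in B-1a WT. Fcer2a among them stood at 4.61 to 17.5 and 18.3 to 815 CPM. Both WT maxima came from B-1a WT 1, while the B-2 cell markers of B-1a WT 3 and WT 4 summed to 1452 and 1467 CPM. The Fcer2a level of 18.3 CPM came from B-1a WT 2, whose Cd5 went against its label. In B-1a WT 3 and WT 4 Fcer2a stood at 26.5 and 26.8 CPM. These marker ranges are also a description, since the share of all genes whose ranges stay apart was not computed. B-1 cell markers, 8 genes, summed to 823 to 1054 CPM in B-1a TET2-KO and 218 to 972 CPM in B-1a WT, with overlap. Plasma cell markers, 6 genes, summed to 117 to 247 CPM in B-1a TET2-KO and 223 to 413 CPM in B-1a WT, and 8 proliferation genes to 38.6 to 95.1 and 67.9 to 129 CPM, with overlap in both. Macrophage markers, 8 genes, summed to 4577 to 28154 CPM in B-1a TET2-KO and 10962 to 29427 CPM in B-1a WT. The part of these cell types in the V gene shares was not tested.

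Of 240 V genes with enough counts, the one whose level over the 21 libraries was most like that of Igkv12-89 was Ighv1-55 (Pearson r = 0.92 of log2 CPM, Spearman rho = 0.88, n = 21 libraries). It stayed first without the highest library (r = 0.90). These ranks include B-1a TET2-KO libraries, which chose the genes, so they are a description. The r of Igkv12-89 with Ighv1-55 was 0.84 over the 17 libraries outside B-1a TET2-KO, where its rank was not computed. Next over all 21 libraries came Igkv14-126 (r = 0.80) and Ighv11-2 (r = 0.77). The 21 points share 6 groups, and the 2 genes of a pair share the depth of each library. For scale, the known pairs gave r = 0.99 for Igkv14-126 with Ighv11-2 and r = 0.88 for Igkv4-91 with Ighv12-3. Over the 17 libraries outside B-1a TET2-KO these known pairs gave r = 0.99 and 0.95, both above the 0.84 of Igkv12-89 with Ighv1-55. Bulk libraries do not show which heavy and light chains were in the same cell.

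The ratio of the Igkv12-89 share of Igkv counts to the Ighv1-55 share of Ighv counts was 1.57, 1.53 and 1.49 in B-1a TET2-KO 1, 3 and 4. In number 2, where both were low, it was 2.47. In B-1a WT 3, the WT library with the highest share of either gene, it was 1.43, and in the 17 libraries outside the group it ran from 0.215 to 1.43. The ratio was thus similar in the 4 libraries with the most Igkv12-89 and more spread where the gene was low.

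A second listing left out all genes whose symbols begin with Igh, Igk or Igl and compared 22317 genes. Those most like Igkv12-89 in it were Agbl1 (r = 0.87), Gm42543 (r = 0.87) and Hes6 (r = 0.80). Gm42543 is annotated as a V gene of the same locus, 44.9 kb from Igkv12-89, and its level was 15.1, 16.02 and 17.5 CPM in B-1a TET2-KO 1, 3 and 4 against 1.11 CPM in number 2. Agbl1, which encodes a deglutamylase, and Hes6, a bHLH transcription factor, lie on chromosomes 7 and 1. Agbl1 ranged from 1.23 to 22.0 CPM and was highest in B-1a TET2-KO 4. Gm42543, Agbl1 and Gm42539 (r = 0.87, 0.78 and 0.72) were the genes of this listing most like Ighv1-55.

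For Igkv5-48 the likest gene changed with the measure. The V genes most like it were Igkv12-40 (r = 0.76), Igkv11-125 (r = 0.75) and Igkv12-44 (r = 0.70), all in the Igk locus, and without B-1a TET2-KO 2 the r with Igkv12-40 was 0.59, 61st of the 240, and Igkv4-55 was first (r = 0.79). By Spearman rho over all 21 libraries the heavy chain gene Ighv5-9-1 was first (rho = 0.73). Igkv12-40 is annotated as a pseudogene and stood at 59.8, 31.8 and 24.5 CPM in the B-1a, B-1b and B-2 TET2-KO 2 libraries, and at no more than 3.97 CPM in any other library. Igkv12-44, a functional gene 87.5 kb from Igkv5-48, held 10.02% of Igkv counts in B-1a TET2-KO 2. With Ighv12-3, the first heavy chain gene of that library, Igkv5-48 gave r = 0.28 over all 21 libraries. With Igkv12-89 it gave r = -0.56. The other genes most like Igkv5-48, Thnsl2, 2410003L11Rik and Gm37978 (r = 0.63 to 0.70), reached at most 2.42 CPM.

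**Figure D3:**
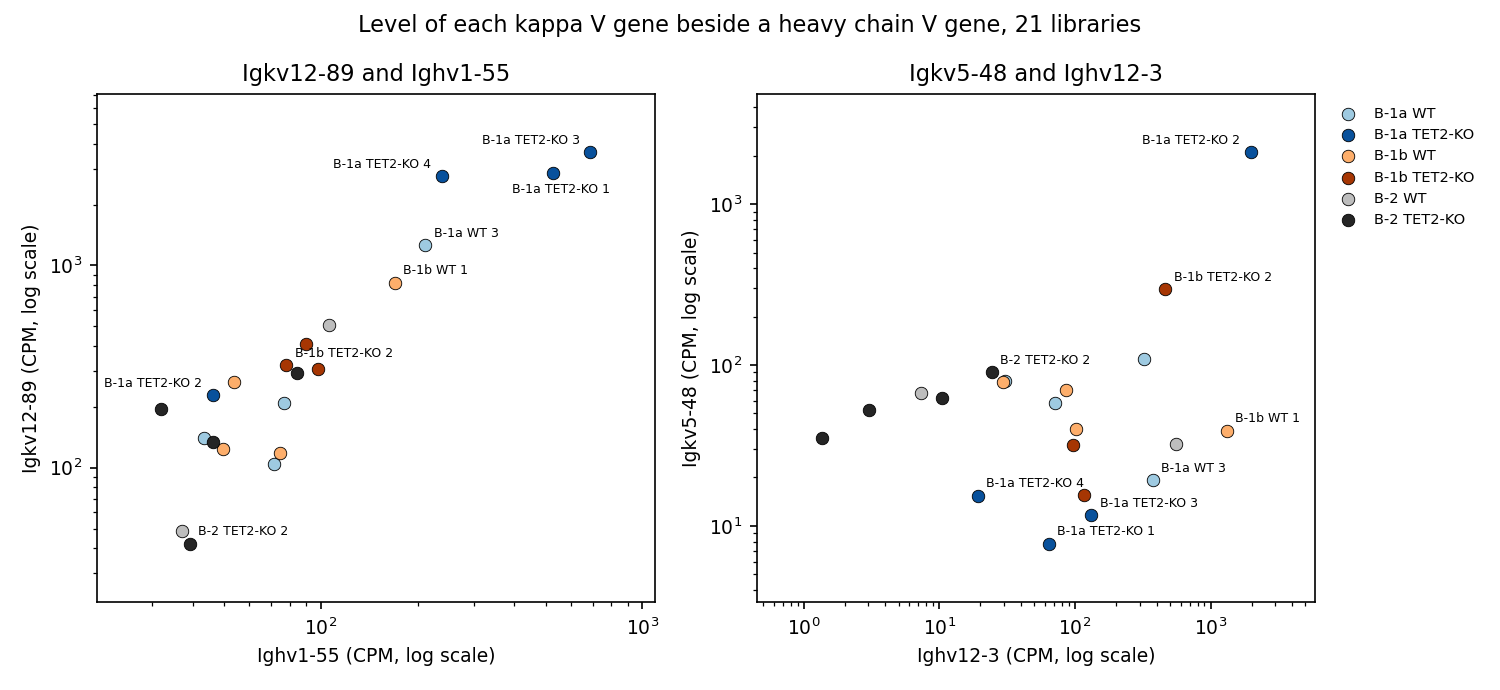
Each point is 1 of 21 libraries, coloured by group, with the level in CPM on log axes of Igkv12-89 against Ighv1-55 (left) and of Igkv5-48 against Ighv12-3 (right). The left points rise together (r = 0.92), and on the right B-1a TET2-KO 2 stands alone at 2103 CPM of Igkv5-48 (r = 0.28).

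The B-1b and B-2 libraries took no part in the choice of the genes, and they allow a test of TET2-KO against WT. If 1 number stands for 1 mouse, the TET2-KO libraries tested came from mice whose B-1a libraries chose the genes. The tests would then not be independent of that choice, and the labels do not settle this. In B-1b cells Igkv12-89 held 5.79%, 4.29% and 6.58% of Igkv counts in TET2-KO 1 to 3, and 5.37%, 1.06%, 3.33% and 1.91% in WT 1 to 4. The means were 5.55% ± 1.16 (SD, n = 3) and 2.92% ± 1.88 (SD, n = 4), and 2 of 3 TET2-KO libraries lay above every WT library. The difference of 2.63 percentage points gave p = 0.114 in a two-sided exact permutation test (0.514 adjusted over the 9 share comparisons, the lowest of them), where the smallest p the design allows is 0.0571. It was 2.93 points with the WT 1 and WT 2 libraries left out, which put 3 of 3 TET2-KO libraries above both WT libraries (exact p = 0.200, the smallest possible). As a share of Igkv and Iglv counts together the difference was 1.47 points (exact permutation p = 0.229), with 1 of 3 TET2-KO libraries above every WT library, and lambda V genes took 27.1% to 39.5% of light chain V counts in B-1b TET2-KO.

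For Igkv5-48 the B-1b TET2-KO libraries held 0.453%, 3.96% and 0.335%, and the WT libraries 0.256%, 0.704%, 0.4997% and 1.08%. Only TET2-KO 2 was above the WT range, and the difference in means of 0.947 points (exact permutation p = 0.686) turned to -0.241 without it. For Ighv1-55 the TET2-KO libraries held 4.22%, 3.49% and 4.77% of Ighv counts and the WT libraries 4.24%, 3.10%, 2.54% and 2.20%. The difference was 1.14 points (exact permutation p = 0.171), with the groups overlapping through the library labelled WT 1.

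In edgeR's quasi-likelihood test across all genes, B-1b TET2-KO versus WT called 0 of 14368 genes at an adjusted p under 0.05 (0%), with 787 at an unadjusted p under 0.05 and 60 called by DESeq2. None of the 3 V genes was called. The log2 fold changes in CPM were 0.09 ± 0.61 (SE, adjusted p = 0.981) for Igkv12-89, 1.04 ± 0.82 (adjusted p = 0.839) for Igkv5-48 and 0.07 ± 0.39 (adjusted p = 0.976) for Ighv1-55. The Igkv genes other than the 2 had a median log2 fold change of -0.84 (104 tested, 0 called) and the other Ighv genes -0.51 (100 tested, 0 called), beside -0.01 over all genes. With WT 1 and WT 2 left out, the log2 fold changes were 0.83, 1.07 and 0.79 (adjusted p = 0.999 for each).

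In B-2 cells, which follow a different developmental path and recirculate, Igkv12-89 held 2.03%, 0.677%, 3.66% and 4.96% in TET2-KO 1 to 4 and 4.49% and 0.655% in WT 1 and 4. The groups overlapped (difference in means 0.257 points, exact permutation p = 0.800, smallest possible 0.133). Igkv5-48 held 0.800%, 1.45%, 0.774% and 0.896% in TET2-KO and 0.284% and 0.896% in WT (difference 0.391 points, exact permutation p = 0.400). Ighv1-55 held 3.58%, 3.15%, 5.12% and 5.11% in TET2-KO against 3.30% and 2.61% in WT, where 3 of 4 TET2-KO libraries were above both WT libraries (difference 1.29 points, exact permutation p = 0.267).

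Across all genes the B-2 comparison called 0 of 19786 (0%) by edgeR's quasi-likelihood test, with 1754 at an unadjusted p under 0.05 and 169 called by DESeq2, and none of the 3 V genes. The log2 fold changes were -0.72 ± 0.87 (SE, adjusted p = 0.679) for Igkv12-89, 0.29 ± 0.41 (adjusted p = 0.715) for Igkv5-48 and -0.48 ± 0.47 (adjusted p = 0.623) for Ighv1-55, where the median of all genes was 0.18. All 3 changed sign without the library labelled WT 1, to 1.79, -0.13 and 0.47 (adjusted p = 1.00 for each by rounding), with 1 WT library left, assumed to vary like the TET2-KO libraries. Without WT 4 the test called 576 genes.

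Among the TET2-KO libraries, B-1b was compared with B-2. The Igkv12-89 share was 2.72 points higher in B-1b (5.55% against 2.83%), and 2 of 3 B-1b libraries lay above all 4 B-2 libraries (exact permutation p = 0.114, smallest possible 0.0571). As a share of Igkv and Iglv counts together it was 1.28 points higher, with 1 of 3 B-1b libraries above all B-2 libraries (exact permutation p = 0.343). Igkv5-48 differed by 0.600 points and Ighv1-55 by -0.079 points (exact permutation p = 0.857 for both). Across all genes edgeR called 372 of 17506 (2.12%), 234 higher and 138 lower in B-1b, and 0 of the 3 V genes. The split was 552 higher and 2535 lower with DESeq2, and 395 higher and 413 lower with no filter on low counts. The log2 fold changes in CPM were 1.00 ± 0.46 (SE, adjusted p = 0.256) for Igkv12-89, 0.90 ± 0.81 (adjusted p = 0.570) for Igkv5-48 and 0.77 ± 0.28 (adjusted p = 0.165) for Ighv1-55.

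Other V genes passed in that comparison. Of 106 other Igkv genes tested, 4 were higher and 9 lower in B-1b (median log2 fold change -0.59, beside -0.09 for all genes), and of 101 other Ighv genes 7 were higher and 5 lower (median 0.12). Igkv4-91 rose by 3.22 ± 0.46 (SE, adjusted p = 0.00397) and Ighv12-3 by 4.51 ± 0.91 (adjusted p = 0.0387) in edgeR. Igkv4-86, 75103 bases from Igkv12-89, rose by 2.30 (adjusted p = 0.00594), and Igkv12-41, among the closest relatives of Igkv12-89 in sequence, fell by 2.53 on the log2 scale (adjusted p = 0.000837). These 4 genes were picked as examples after their values were seen. Igkv14-126 and Ighv11-2 did not pass. Of 13 genes for the B cell receptor and the factors that act on V promoters, such as Cd79a, Pax5 and Pou2af1, 0 were called in any of the 3 comparisons, and neither was any of the 5 Igkj genes.

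**Figure D4:**
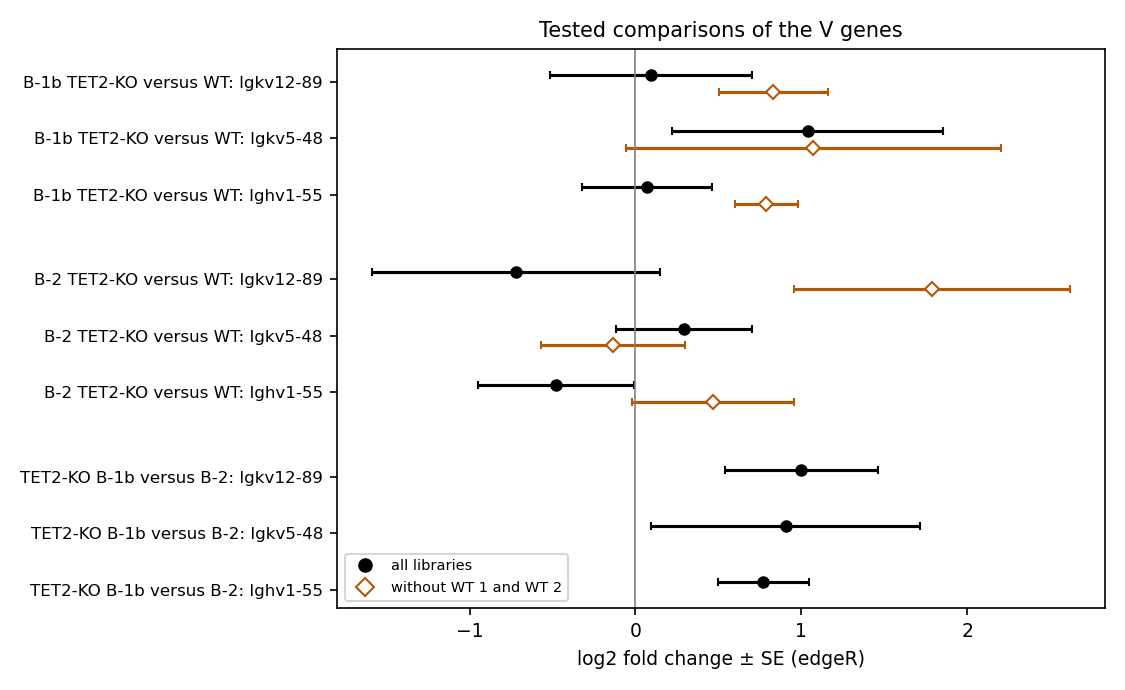
Points are edgeR log2 fold changes of the 3 V genes with bars of 1 SE, for all libraries (filled) and with the WT 1 and WT 2 libraries left out (open). None passed an adjusted p of 0.05, and in B-2 cells all 3 changed sign, Igkv12-89 from -0.72 to 1.79.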

How the data were processed

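Per the labels and methods, RNA of 3 sorted B cell subsets was sequenced by an ultra-low input method. The authors used fastp for trimming and STAR for alignment (GRCm39), and deposited raw read counts per gene from featureCounts 1.6.1, which the file headers show as paired and unstranded with GENCODE vM32. Symbols came from GENCODE vM39 (56310 of 56953 identifiers matched). Because the counting was unstranded and by gene, overlapping and near-identical V genes can be confused, and J and D use is not linked to V use.

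Shares, ranks and effective gene numbers were computed from the counts, and CPM with TMM factors. The tests were edgeR 4.0.16 quasi-likelihood fits over all genes of the groups compared (filterByExpr, Benjamini-Hochberg at 0.05), checked on simulated data, with each SE taken as the size of the log2 fold change over the root of its F, and two-sided exact permutation tests of 9 share differences. DESeq2 1.42.0 was an alternative. Correlations used log2 CPM with a prior count of 2. Sequences came from the GRCm39 genome and were aligned with Biopython 1.88. Groups came from the labels. The members, lists and comparisons were chosen with earlier results of these data known. The named genes were the 3 members, the first and second V genes of each library, the V and other genes most like each member, neighbours, closest relatives, J and constant genes, and receptor genes.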

Additional observations from a re-analysis of the deposited data

Results flagged for a closer look

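In 1 of 9 sets of 4 libraries (a gene in a group, without the B-1a TET2-KO group, which chose the genes), 1 library stood far from the rest, judged by its gap to the nearest value over the range of the group. Igkv12-89 held 11.95% of Igkv counts in B-1a WT 3, with a gap of 0.909 of the range of the B-1a WT group. The nearest value, 1.94% in WT 2, and the lowest, 0.930% in WT 1, belong to libraries whose markers went against their label. Cd5 stood at 19.8 CPM in B-1a WT 3 and at 22.7 CPM in B-1a WT 4, where Igkv12-89 held 1.82%. The flag was set at a gap above 0.829 of the range. By chance about 1 in 20 groups would pass that limit if the shares were normally distributed.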

How the results depend on the processing

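The main limits are the 2 to 4 libraries per group and the 5 WT libraries whose markers went against their labels. The counts of genes called moved most. In B-1b TET2-KO versus WT they went from 0 to 60 with DESeq2 and 131 without a filter, in B-2 from 0 to 169 and 167, and in TET2-KO B-1b versus B-2 from 372 to 3087 and 808, and to 151 with the replicate block. Leaving out 1 library gave 0 to 0, 0 to 576 and 114 to 335. Whether the numbers pair the libraries was not settled. Correlations of deviations between TET2-KO B-1b and B-2 libraries of the same number were 0.17, 0.14 and -0.03 for numbers 1 to 3. Those between TET2-KO and WT libraries, -0.12 to 0.36, join different mice and cannot show pairing. B-1a libraries were not compared in this way. Some V genes were highest in TET2-KO libraries of 1 number in all 3 subsets, but the share of all V genes that do so was not computed. With the replicate block the log2 fold changes of Igkv12-89 and Igkv5-48 in B-2 cells turned to 0.056 and -0.078. In TET2-KO versus WT that block joins different mice by number alone, so no known pairing lies behind those values. The log2 fold change of Igkv5-48 in TET2-KO B-1b versus B-2 turned to -0.39 with the block. The log2 fold change of Igkv12-89 in the last comparison passed without a filter (1.10, adjusted p = 0.00905), and DESeq2 gave no adjusted p for Igkv5-48 there. With WT 1 left out, the B-2 log2 fold changes were 1.79, -0.13 and 0.47. Leaving out 1 library gave log2 fold changes of -0.18 to 1.04, -1.24 to 1.56 and -0.11 to 0.61 for Igkv12-89, Igkv5-48 and Ighv1-55 in B-1b, -1.58 to 1.79, -0.13 to 0.94 and -1.02 to 0.47 in B-2, and 0.66 to 1.37, -1.38 to 1.44 and 0.60 to 1.10 in TET2-KO B-1b versus B-2, where Ighv1-55 passed without B-2 TET2-KO 3 (adjusted p = 0.0266 in edgeR). Differences in share ranged from 2.02 to 3.45, -0.241 to 1.57 and 0.835 to 1.54 points in B-1b, -1.66 to 2.18, 0.0853 to 0.697 and 0.940 to 1.65 in B-2, 2.00 to 3.43, -0.587 to 1.22 and -0.441 to 0.257 in TET2-KO B-1b versus B-2, and 24.7 to 41.9, -0.538 to 11.7 and 14.6 to 26.2 in B-1a. As a share of Igkv and Iglv counts together, the Igkv12-89 differences were 1.47 in B-1b, 0.506 in B-2 and 1.28 in TET2-KO B-1b versus B-2, and those of Igkv5-48 were 0.489, 0.373 and 0.109. With medians the Igkv5-48 differences turned to -0.149 in B-1b, -0.395 in TET2-KO B-1b versus B-2 and -0.411 in B-1a, and without TET2-KO 2 the differences in means turned negative in all 3. The r of Igkv5-48 with Igkv12-40 was 0.556 as Spearman rho and 0.594 without its highest library, and other V genes were then more like it. Outside the values given here, no alternative run changed a direction or a call.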

Other observations

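Ighv12-3 and Ighv5-17, picked after their values were seen, were each highest in TET2-KO libraries of 1 number in all 3 subsets. The share of all V genes that do so was not computed, so this is a description. Ighv12-3 held 69.3%, 20.7% and 1.95% of Ighv counts in the libraries numbered TET2-KO 2, given in the order B-1a, B-1b, B-2, the highest of each TET2-KO subset. Ighv5-17 held 18.1%, 14.4% and 5.67% in those numbered TET2-KO 3, again the highest of each TET2-KO subset, and 3.18% in the median library outside B-1a TET2-KO. Lambda V genes took 65.8% and 39.5% of light chain V counts in B-1a and B-1b TET2-KO 2, and 10.9% in B-2 TET2-KO 2, within the range of the other B-2 TET2-KO libraries. Igkv6-15 held 10.98% of Igkv counts in B-1a TET2-KO 1 and 0.528% to 0.619% in the other 3 B-1a TET2-KO libraries.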
